A study of Mus musculus with 6 samples.

Results

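Repair of DNA breaks and crosslinks was followed through 35 genes for homologous recombination, the Fanconi anemia pathway and end joining. The genes were chosen by name from the table of gene counts, and all 35 were found among its 43346 genes. By the rule of choice, 28 of them belong to homologous recombination, the Fanconi pathway or repair by polymerase theta, and the other 7 (*Xrcc4*, *Xrcc5*, *Xrcc6*, *Prkdc*, *Lig4*, *Nhej1* and *Dclre1c*) to end joining. The question was how the RNA of both classes differed between control and senescent mouse adult fibroblasts (MAFs).

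MAFs are primary cells grown from mouse ears, here from adult female C57BL6/J mice, at 3% oxygen. The control group was sham irradiated, and the senescent group was given 20 Gy of X-rays and cultured for 21 more days. Cells of both groups were used between passages 3 and 8, were exposed to 100 nM dexamethasone for 2 hours, which sets cultured cells to a common circadian phase, and were collected 12 hours afterwards. Each group had 3 samples, and no source says whether these came from separate mice or cultures, so p-values measure the spread between samples, which may be technical.

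A break through both strands of DNA is mended by either of 2 main routes. Homologous recombination trims the ends to single strands and copies the sister chromatid, which exists only after replication, so the route works in S and G2 phase. Classical end joining binds and ligates the ends directly in any phase, with no template. The Fanconi pathway removes crosslinks between the strands during replication and hands the resulting breaks to recombination, and polymerase theta joins trimmed ends through short matching stretches.

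Total counts lay between 50288454 and 82229553 per library, and the members had between 26 and 3508 counts in a library. Levels are given in CPM, counts scaled to a common library size with TMM factors of 0.968 to 1.03. Senescent replicate 3 stood apart: its counts differed from those of the other senescent replicates by 18.5 and 24.6 times the squared difference that sampling gives (median over genes), against 2.24 for senescent replicates 1 and 2 and 1.77 to 5.33 among controls. The senescence gene *Cdkn1a* (p21) averaged 123 ± 2.01 CPM in control and 619.5 ± 16.3 CPM in senescent MAFs, and *Cdkn2a*, the locus of p16, 1.20 ± 0.0738 CPM and 4.50 ± 1.50 CPM (n = 3 each, SD). All 10 fibroblast markers examined were expressed (5 lower and 3 higher, 21416 to 23928 against 9196 to 11835 CPM in sum), but 8 of 8 chondrocyte markers were also present and lower in senescent cells, with a summed level of 5216 to 5716 CPM in control and 361 to 441 CPM in senescent libraries. Markers of macrophages (6 of 6 tested higher, 8.30 to 9.03 against 18.7 to 21.8 CPM in sum), endothelium (5 of 5 higher, 2.55 to 2.93 against 8.16 to 8.71 CPM), skeletal muscle (2 of 2 higher, 0.163 to 0.441 against 1.59 to 1.73 CPM), keratinocytes (1 lower and 1 higher of 4, 15.9 to 16.6 against 12.3 to 13.6 CPM) and Schwann cells or melanocytes (2 lower and 1 higher of 4, 9.24 to 10.8 against 11.1 to 12.4 CPM) were low, and *Krt14*, *Dsg3*, *Lor*, *Adgre1*, *Myod1*, *Myf5*, *Myog*, *Tyr* and *Dct* were under 0.1 CPM in both groups. Among all tested genes, 34.1% were lower and 36.2% higher (edgeR, adjusted p under 0.05). The part of such other cell types in the results was not tested.

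Promoter windows of RefSeq (GRCm38.p6, 250 bases before to 50 after the start) were matched by symbol for 28 of the 35 members, and *Exo1*, *Fancd2*, *Prkdc*, *Rad51d*, *Rad54b*, *Rbbp8* and *Xrcc2* had none. Stretches of 150 bases that end just before the start site are shown, 5′ to 3′ on the gene's strand, to set promoters of genes that fell to under 10% of control beside promoters of end joining genes. They were chosen among those that overlap no exon beyond 1 base. Stretches of *Brca1*, *Nhej1* and *Lig4* also met this rule but are not shown. Of these, the *Brca1* stretch holds a CCAAT match and those of *Nhej1* and *Lig4* hold no marked word. The *Xrcc5* window has a CCAAT match further upstream than the stretch shown. The last capitals of the *Polq* stretch begin a TTTGAA that runs past the start site. Capitals mark matches on either strand to CCAAT, the box bound by NF-Y, to the E2F-type words TTTGGCGC, TTTCCCGC, TTTGCCGC and TTTCGCGC, and to the CHR-type words TTTGAA and TTCGAA of cell cycle promoters. On the other strand CCAAT reads ATTGG. The stretch before *Rad54l* is the whole interval up to and including the first base of *Pomgnt1*, the gene that starts opposite it.
*Rad54l*, chr4:116123691-116123840, minus strand: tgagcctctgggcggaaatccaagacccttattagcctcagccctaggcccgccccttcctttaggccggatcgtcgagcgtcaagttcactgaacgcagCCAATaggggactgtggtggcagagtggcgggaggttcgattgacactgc
*Rad51ap1*, chr6:126939588-126939737, minus strand: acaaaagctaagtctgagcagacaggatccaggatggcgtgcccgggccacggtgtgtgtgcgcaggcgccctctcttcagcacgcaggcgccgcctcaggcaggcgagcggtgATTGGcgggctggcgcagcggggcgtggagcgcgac
*Brip1*, chr11:86201194-86201343, minus strand: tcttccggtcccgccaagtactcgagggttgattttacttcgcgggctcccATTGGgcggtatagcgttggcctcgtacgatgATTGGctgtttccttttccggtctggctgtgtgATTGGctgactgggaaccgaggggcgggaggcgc
*Fanca*, chr8:123318577-123318726, minus strand: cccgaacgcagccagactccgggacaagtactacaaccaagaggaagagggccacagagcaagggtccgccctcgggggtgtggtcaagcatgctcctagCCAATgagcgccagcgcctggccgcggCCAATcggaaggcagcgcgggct
*Polq*, chr16:37011636-37011785, plus strand: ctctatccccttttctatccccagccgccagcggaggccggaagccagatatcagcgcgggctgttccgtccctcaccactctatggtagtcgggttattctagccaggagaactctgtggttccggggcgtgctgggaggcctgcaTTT
*Dclre1c*, chr2:3423981-3424130, plus strand: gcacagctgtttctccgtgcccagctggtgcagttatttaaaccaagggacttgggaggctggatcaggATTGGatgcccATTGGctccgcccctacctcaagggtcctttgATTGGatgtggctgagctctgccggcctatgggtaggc
*Xrcc5*, chr1:72307271-72307420, plus strand: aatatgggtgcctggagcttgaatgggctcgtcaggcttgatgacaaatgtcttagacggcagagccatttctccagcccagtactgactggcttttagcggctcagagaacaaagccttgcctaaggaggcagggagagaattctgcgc

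Most recombination and Fanconi members fell in senescent cells, while the 7 end joining members stayed within a factor of 2 of control. Of the 28 genes of the first class, 25 were lower and 0 higher (quasi-likelihood test of edgeR, Benjamini-Hochberg adjusted p below 0.05 over the 17589 genes tested). Over all tested genes, 34.1% were lower and 36.2% higher by the same rule, or 70.3% in either direction. A fall of more than 2-fold was found for 22 of the 28, beside 12.3% of all tested genes, and 10 of the 28 were under 10% of their control level. No gene of the class was higher at an unadjusted p under 0.05 either, and DESeq2 gave the same counts, 25 lower and 0 higher. The median log2 fold change of the class was -2.42, against 0.0085 for all tested genes.

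Of the 7 end joining genes, 4 were lower and 1 was higher by the same edgeR rule, and 3 were lower and 3 higher when libraries were scaled by their size alone or when the test took in only genes of 10 or more counts in each library. None of the 7 exceeded a change of 2-fold, in edgeR or in DESeq2, where 17.7% (edgeR) of all tested genes rose and 12.3% fell past that limit. Scaled by library size alone, *Lig4* passed it with a log2 fold change of 1.01. The median log2 fold change of the 7 genes was -0.20, and stayed below 0 with RLE scaling and with library size alone.

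**Figure D1:**
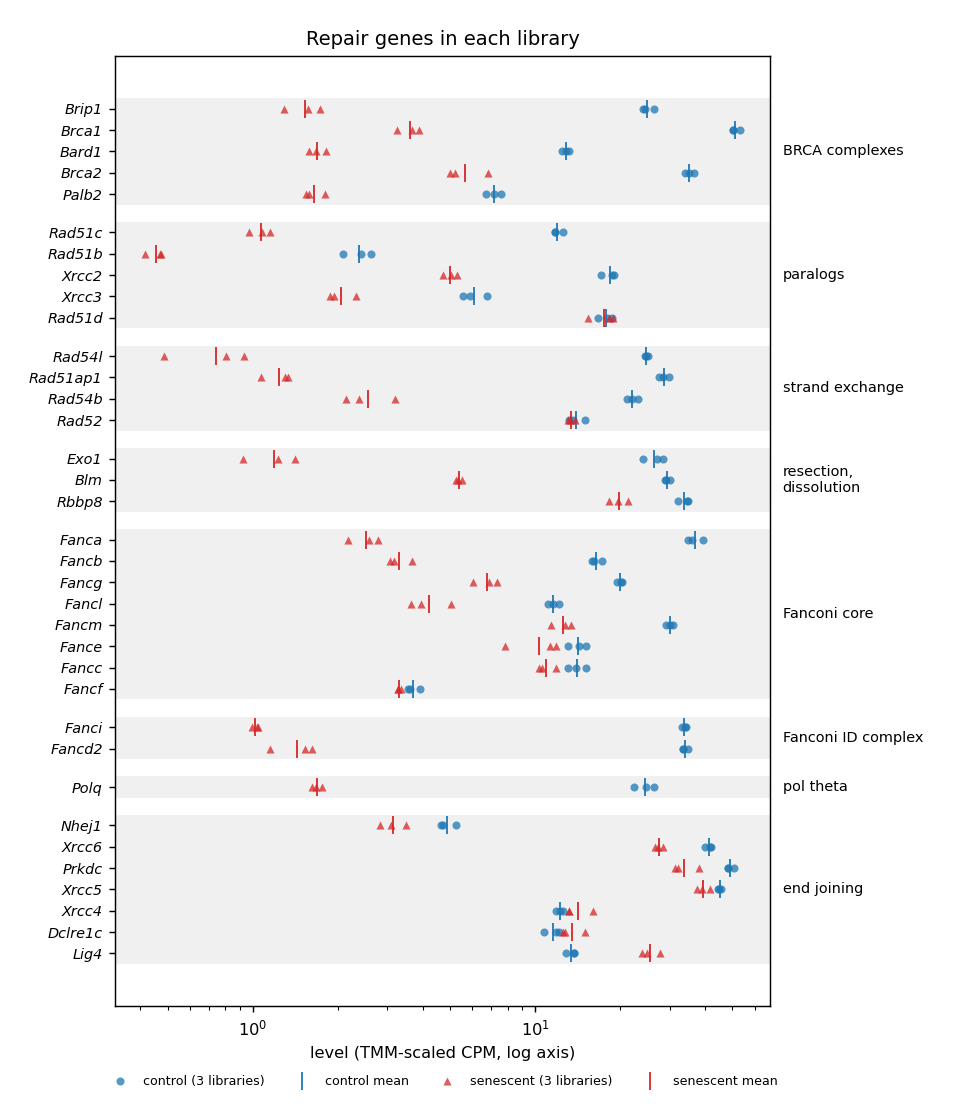
Level of each repair gene in the 6 libraries, in TMM-scaled CPM on a log axis, with genes grouped by role. Circles are the 3 control and triangles the 3 senescent libraries, and vertical ticks are group means. The groups lie apart for most recombination and Fanconi genes, by the widest distance for *Fanci* and *Rad54l*, and close together for end joining genes.

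The summed levels of the classes lay closer together in senescent than in control cells. Per kilobase of gene model, which allows levels of different genes to be compared, the 28 recombination and Fanconi genes summed to 110.5 ± 1.22 CPM per kb in control and 33.0 ± 0.258 CPM per kb in senescent cells. The 7 end joining genes summed to 42.2 ± 0.687 and 37.7 ± 2.52 CPM per kb (SD, n = 3 per group). End joining genes thus held 27.5% to 27.8% of the summed level in control libraries and 52.3% to 55.2% in senescent libraries. The median recombination or Fanconi gene was at percentile 46.0 of all tested genes by level per kilobase in control cells and at percentile 20.4 in senescent cells, while the median end joining gene was at percentiles 46.2 and 46.7.

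**Figure D2:**
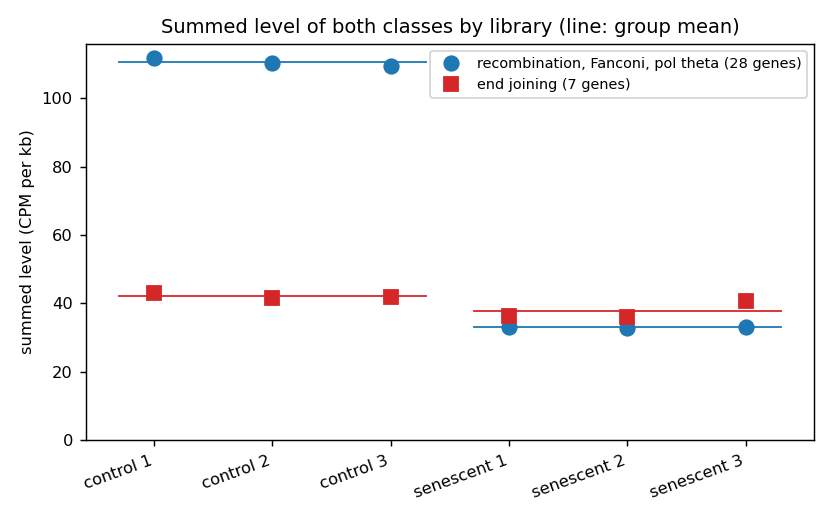
Summed level per kilobase of gene model (CPM per kb, axis from 0) of the 28 recombination, Fanconi and polymerase theta genes (circles) and the 7 end joining genes (squares) in each library, with lines at the group means. The circles drop from 109.5 to 111.9 in control to 32.7 to 33.2 in senescent libraries, while the squares lie at 41.7 to 43.0 and 36.1 to 40.6.

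Genes of the cell cycle were lower as well. All 13 S phase markers examined were lower in senescent cells (edgeR, adjusted p under 0.05), beside 34.1% of all tested genes. Their summed levels were 1288 to 1297 CPM in control and 245 to 247 CPM in senescent libraries, with a median log2 fold change of -2.79. The 13 G2 and M phase markers were also lower, from 2157 to 2237 CPM in control to 59.6 to 68.3 CPM in senescent libraries, with a median of -5.34. *Pcna*, the sliding clamp of replication, averaged 116 ± 2.17 CPM and 47.7 ± 1.17 CPM, and *Mki67*, the gene of Ki-67, 589 ± 17.3 CPM and 9.60 ± 1.49 CPM (n = 3 each, SD). In RNA from whole cultures, fewer cells in a phase and less RNA per cell cannot be told apart, and the part of the cell cycle in the change of the repair genes was not tested.

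**Figure D3:**
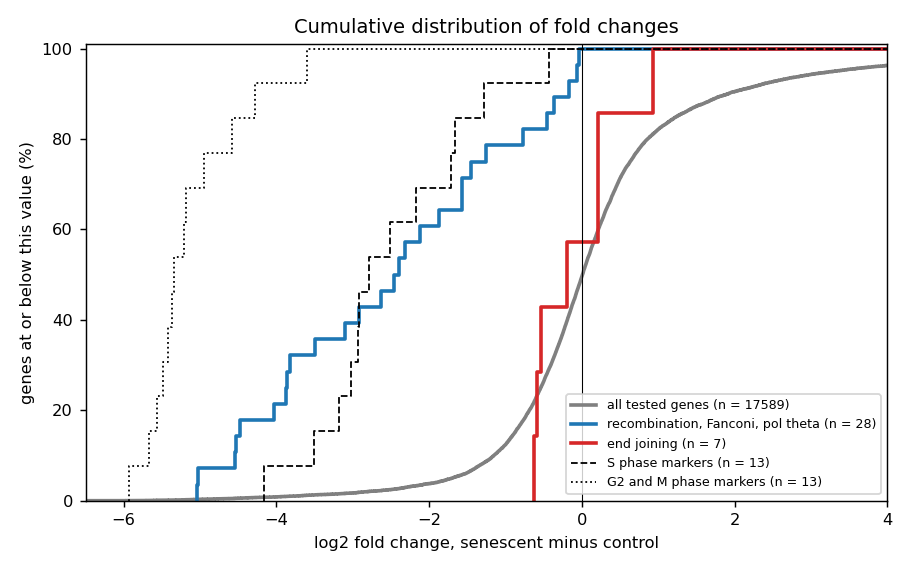
Share of genes (%) at or below each log2 fold change (senescent minus control) for all 17589 tested genes, the 28 recombination, Fanconi and polymerase theta genes, the 7 end joining genes and the 13 S phase and 13 G2 and M phase markers. The 28 genes run beside the S phase markers, with medians of -2.42 and -2.79, and the end joining genes stay between -0.63 and 0.93. The axis leaves out tested genes above 4.

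The BRCA group holds BRCA1 and its partner BARD1, a ubiquitin ligase that steers breaks toward recombination, PALB2, which bridges BRCA1 to BRCA2, BRCA2, which works at the trimmed ends, and the helicase BRIP1. All 5 were lower in senescent cells by more than 2-fold, and their groups did not overlap. Groups without overlap were common, at 75.3% of all tested genes, which applies wherever a lack of overlap is given below. *Brca1* (ENSMUSG00000017146, chromosome 11 from 101488764 to 101551955 of mm10) was at 53.1, 50.4 and 50.3 CPM in control replicates 1, 2 and 3 and at 3.68, 3.26 and 3.90 CPM in senescent replicates 1, 2 and 3. Senescent cells thus held 7.04% of the control level, a log2 fold change of -3.83 (standard error 0.09, adjusted p = 2.90e-08, edgeR). *Brip1* (chromosome 11 from 86058138 to 86201193) was at 26.5, 24.1 and 24.4 CPM in the control libraries and at 1.57, 1.29 and 1.73 CPM in the senescent libraries, the largest fall of the group at -4.03 on the log2 scale. *Bard1* was at 13.2% and *Brca2* at 16.1% of their control means. The smallest fall was that of *Palb2* (chromosome 7 from 122107262 to 122132946), from 7.56, 6.69 and 7.15 CPM to 1.80, 1.59 and 1.54 CPM, which still left 23.1% of the control level.

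A family of related proteins, the paralogs, helps strand exchange, with RAD51B, RAD51C, RAD51D and XRCC2 in 1 complex and RAD51C with XRCC3 in another. *Rad51c* (chromosome 11 from 87376645 to 87404954) fell most, from 11.7, 11.7 and 12.5 CPM in control to 1.15, 0.972 and 1.08 CPM in senescent libraries (log2 fold change -3.49). *Rad51b*, *Xrcc2* and *Xrcc3* fell by less, with log2 fold changes of -2.39, -1.87 and -1.57. *Rad51d* (chromosome 11 from 82876434 to 82890614), whose protein sits between RAD51C and XRCC2, had overlapping groups, at 16.8, 18.8 and 18.0 CPM in control and 18.8, 18.2 and 15.4 CPM in senescent libraries. Its log2 fold change was -0.03, with a 95% interval of -0.26 to 0.19 (adjusted p = 0.79, edgeR), so a change of 2-fold in either direction lies outside the interval. In control cells the 4 genes of the first complex were at 4.80 ± 0.273 (*Rad51d*), 3.52 ± 0.197 (*Xrcc2*), 2.74 ± 0.104 (*Rad51c*) and 1.34 ± 0.154 (*Rad51b*) CPM per kb. In senescent cells these levels were 4.71 ± 0.494, 0.960 ± 0.0544, 0.244 ± 0.0210 and 0.255 ± 0.0179 CPM per kb (SD, n = 3), so that *Rad51d* stood above the genes of its partners in both groups.

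Genes of other strand exchange and annealing proteins showed the same contrast. *Rad54l* (chromosome 4 from 116094264 to 116123690), the gene of a motor protein that drives strand exchange, was at 25.1, 24.5 and 24.6 CPM in control and 0.487, 0.934 and 0.806 CPM in senescent libraries. The senescent mean was 3.00% of control (log2 fold change -5.02, standard error 0.18, adjusted p = 1.77e-07, edgeR), and every senescent library lay below every control library. *Rad51ap1* (chromosome 6 from 126923050 to 126939587), the gene of a protein that promotes strand invasion, fell from 28.4, 27.6 and 29.7 CPM to 1.34, 1.07 and 1.30 CPM. *Rad54b*, a relative of *Rad54l*, fell by 3.10 on the log2 scale, although 35.9% of its exon bases are shared with other genes, *Fsbp* on the same strand among them, and its value is uncertain to that extent. *Rad52* (chromosome 6 from 119902698 to 119922828), whose protein anneals single strands, did not pass the test, at 15.1, 13.6 and 13.2 CPM in control and 13.3, 13.0 and 13.8 CPM in senescent libraries. Its groups overlapped, and its log2 fold change of -0.06 had a 95% interval of -0.25 to 0.13.

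Resection, the trimming of break ends, starts with CtIP, the product of *Rbbp8*, and is extended by the nuclease EXO1 and the helicase BLM, which also takes apart joined recombination intermediates. *Rbbp8* (chromosome 18) fell least, from 34.8, 34.5 and 32.1 CPM in control to 19.7, 18.2 and 21.4 CPM in senescent libraries, a log2 fold change of -0.77 (standard error 0.08, adjusted p = 6.81e-05, edgeR). *Exo1* (chromosome 1 from 175880581 to 175913489) went from 28.3, 27.0 and 24.1 CPM to 1.23, 0.921 and 1.41 CPM and kept 4.48% of its control level. *Blm* was intermediate, at 30.2, 29.1 and 28.9 CPM in control and 5.32, 5.25 and 5.51 CPM in senescent libraries. The gene of the first step kept more of its RNA than the other 2, and the groups of all 3 genes did not overlap. *Polq*, the gene of polymerase theta (chromosome 16 from 37011786 to 37095417), which competes for trimmed ends, fell from 26.3, 24.7 and 22.4 CPM to 1.62, 1.75 and 1.68 CPM (log2 fold change -3.86). Without it, 24 of the remaining 27 genes of the class were lower.

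In the Fanconi pathway, a core complex recognises the stalled fork and its FANCL subunit attaches ubiquitin to the FANCI and FANCD2 pair, which then clamps the DNA. The genes of this clamp had some of the largest falls of all members. *Fanci* (ENSMUSG00000039187, chromosome 7 from 79391929 to 79450265) was at 34.0, 33.1 and 34.3 CPM in control and 0.992, 1.03 and 1.04 CPM in senescent libraries, or 3.03% of control (log2 fold change -5.04, standard error 0.08, adjusted p = 1.02e-08, edgeR). *Fancd2* (ENSMUSG00000034023, chromosome 6 from 113531682 to 113597017) was at 34.7, 33.3 and 33.5 CPM in control and 1.15, 1.53 and 1.62 CPM in senescent libraries, or 4.24% of control. The replicates of each group lay within a narrow range beside the gap between the groups.

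The 8 core genes among the members spread from a 14.6-fold fall to none that passed the test. FANCA and FANCG form a unit of the complex, and their genes had log2 fold changes of -3.88 and -1.57. *Fanca* (chromosome 8 from 123268300 to 123318576) was at 34.9, 36.1 and 39.4 CPM in control and 2.78, 2.59 and 2.18 CPM in senescent libraries. FANCB and the ligase FANCL form the catalytic unit, with log2 fold changes of -2.31 for *Fancb* and -1.46 for *Fancl*. *Fancm*, the gene of the DNA motor that anchors the complex, had a log2 fold change of -1.26. These 5 genes were lower by more than 2-fold.

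The other 3 core genes, *Fancc*, *Fance* and *Fancf*, encode the unit that binds FANCD2 and presents it to the ligase. This unit was singled out after its values had been seen. *Fancc* was at 14.0, 15.1 and 13.1 CPM in control and 10.4, 10.6 and 11.8 CPM in senescent libraries (log2 fold change -0.37, adjusted p = 0.00743, edgeR). *Fance* was at 13.1, 15.2 and 14.3 CPM in control and 11.3, 11.8 and 7.86 CPM in senescent libraries (log2 fold change -0.46, adjusted p = 0.0277, edgeR). Its call was lost without control replicate 2 (adjusted p = 0.0923), without control replicate 3 (0.0716) and with scaling by library size alone (0.0524). *Fancf* was at 3.55, 3.90 and 3.62 CPM in control and 3.27, 3.28 and 3.34 CPM in senescent libraries, slightly lower without overlap, but did not pass the test (log2 fold change -0.16, 95% interval -0.38 to 0.06, adjusted p = 0.155, edgeR). Senescent cells kept 77.5%, 72.7% and 89.4% of the control level of *Fancc*, *Fance* and *Fancf*. The other core genes among the members kept 6.83% to 41.7%. Further core complex genes, listed apart from the members, kept 98.2% (*Faap20*, which did not pass the test), 76.6% (*Faap24*) and 54.2% (*Faap100*). Such levels were thus not particular to the unit of FANCC, FANCE and FANCF.

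Exons of several members overlap those of other genes, and the strand setting of the counting is not given in the sources used here. Besides *Rad54b*, over 10% of exon bases are shared for *Fancc* (18.6%), *Fanci* (16.0%, with *Polg*), *Rad54l* (15.4%, with *Lrrc41*), *Fancf* (15.0%, with *Gas2*), *Fancl* (13.7%, with *Vrk2*) and *Fanca* (10.5%, with *Zfp276*), and 18 of the 35 members share none.

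**Figure D4:**
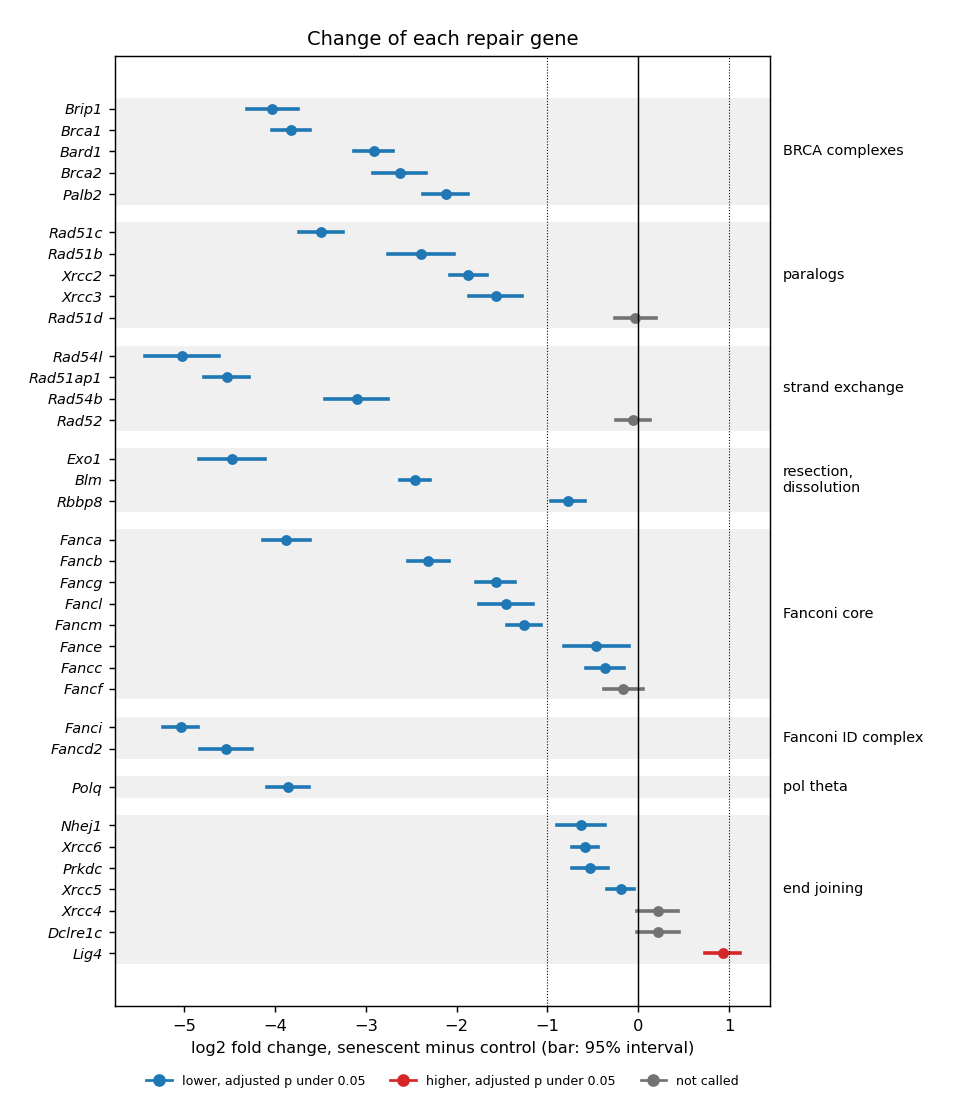
Log2 fold change of each repair gene (senescent minus control, edgeR) with its 95% interval, grouped by role, with dotted lines at a 2-fold change. Genes that were lower are blue, the higher gene is red and genes that did not pass an adjusted p of 0.05 are grey. The 7 end joining genes lie between -0.63 and 0.93.

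End joining starts when the Ku ring, made of Ku70 (*Xrcc6*) and Ku80 (*Xrcc5*), slips onto a break and calls in the kinase DNA-PKcs (*Prkdc*). *Xrcc6* (ENSMUSG00000022471, chromosome 15 from 81987835 to 82040085) was lower, at 41.8, 40.0 and 41.9 CPM in control and 27.2, 26.6 and 28.5 CPM in senescent libraries, a log2 fold change of -0.59 (standard error 0.06, adjusted p = 6.54e-05, edgeR). *Prkdc* (chromosome 16 from 15637866 to 15842235) was lower to a similar extent, at 50.6, 48.2 and 48.3 CPM in control and 31.3, 32.0 and 38.1 CPM in senescent libraries. *Xrcc5* (chromosome 1 from 72307421 to 72394952) was at 45.6, 44.9 and 44.5 CPM in control and 39.0, 37.4 and 41.6 CPM in senescent libraries. The groups of these 3 genes did not overlap, but the fall of *Xrcc5*, -0.20 on the log2 scale with a 95% interval of -0.34 to -0.05 (adjusted p = 0.0226, edgeR), lost its call with scaling by library size alone, with a filter of 10 counts in each library and without any 1 of the 5 libraries other than senescent replicate 3 (adjusted p between 0.0552 and 0.133). By level per kilobase *Xrcc5* and *Xrcc6* ranked 1 and 2 among the 35 members in both groups, with *Xrcc5* at 17.6 ± 0.206 and 15.4 ± 0.826 CPM per kb in control and senescent cells (SD, n = 3).

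The ends are then processed by the nuclease Artemis (*Dclre1c*) and sealed by DNA ligase IV (*Lig4*) with its scaffold XRCC4 and the aligning factor XLF (*Nhej1*). *Lig4* (ENSMUSG00000049717, chromosome 8 from 9970020 to 9977686) was the single member to rise. It was at 13.7, 12.9 and 13.8 CPM in control and 24.0, 25.0 and 27.8 CPM in senescent libraries, 1.90-fold higher (log2 fold change 0.93, standard error 0.08, adjusted p = 2.74e-05, edgeR). Every senescent library lay above every control library, and the call held with each library left out, with log2 fold changes of 0.87 to 0.98. Its level per kilobase ranked 24 among the members in control cells and 3 in senescent cells. *Nhej1* fell, from 5.23, 4.72 and 4.66 CPM to 2.83, 3.09 and 3.50 CPM (log2 fold change -0.63, adjusted p = 0.00143, edgeR).

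*Xrcc4* was at 11.8, 12.6 and 12.3 CPM in control and 13.2, 13.2 and 16.1 CPM in senescent libraries, and *Dclre1c* at 11.9, 12.2 and 10.8 CPM and 12.6, 12.8 and 15.1 CPM. Their groups did not overlap, but neither passed the test, with 95% intervals of -0.02 to 0.44 and -0.01 to 0.45 for the log2 fold change. Scaled by library size alone, both passed as higher, with adjusted p of 0.0281 and 0.0283 (edgeR).

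All 7 end joining genes had their highest senescent value in senescent replicate 3, the library that stood apart, as did 18 of the 28 other members. Without this library, 4 end joining genes were still lower and 1 higher, and 25 of the 28 others lower. Over all members, the groups did not overlap for 30 genes lower and 3 genes higher in senescent cells, in a comparison where 37.0% of all tested genes were lower and 38.4% higher without overlap, 75.3% in all. The exceptions with overlap were *Rad51d* and *Rad52*. The replicates of a group differed little, with a median coefficient of variation over members of 4.36% in control and 9.64% in senescent cells.

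Other genes of the same pathways, listed apart from the members, also fell more often than they rose. Of 27 other recombination genes, 21 were lower and 2 higher (edgeR, adjusted p under 0.05), beside 34.1% and 36.2% of all tested genes. A fall past 2-fold was found for 12 of the 27, beside 12.3% of all tested genes, and the median log2 fold change was -0.61. *Parpbp*, *Eme1* and *Fignl1*, named for the smallest p among the lower genes, fell by 4.46, 4.49 and 3.66 on the log2 scale, far more than the median. EME1 is a subunit of a nuclease that cuts joined molecules. *Swsap1* and *Eme2* were higher, with log2 fold changes of 0.50 and 0.39.

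Of 14 other Fanconi genes, 12 were lower and 1 higher by the same rule, beside 34.1% and 36.2% of all tested genes. A fall past 2-fold was found for 3 of the 14, beside 12.3% of all tested genes, and the median was -0.66. *Cenps*, whose protein partners FANCM, fell by 2.94 on the log2 scale, *Ube2t*, the ubiquitin-conjugating enzyme that works with FANCL, by 2.12, and the ubiquitin ligase gene *Rfwd3* by 0.96. The nuclease gene *Ercc4* rose from 19.0 ± 0.261 CPM to 23.1 ± 1.50 CPM (n = 3 each, SD).

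Other genes listed under end joining, which include *Parp1*, *Lig3* and *Xrcc1* beside factors of the classical route, were lower more often than higher. Of 16 tested genes, 12 were lower and 0 higher by edgeR, beside 34.1% and 36.2% of all tested genes. The median of the 16 was -0.50, while 1 of them was higher at an unadjusted p under 0.05 and 1 by DESeq2. A fall past 2-fold was found for 4 of the 16, beside 12.3% of all tested genes, and for none of the 7 end joining members. In summed CPM, which weighs abundant genes most, this list kept 65.1% of its control level and the other recombination genes 63.6%. Of those 27 recombination genes, 12 fell past 2-fold. *Parp1*, a break sensor, had a log2 fold change of -1.31, *Polm*, a gap-filling polymerase, one of -1.07, and *Aplf*, a scaffold that binds Ku, one of -0.75. *Dntt* was below the filter for the test and *Shld3* was not matched to the table.

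Many repair genes begin close to another gene that is read the opposite way, so that both may share 1 promoter region. By GENCODE gene starts on GRCm38 (mm10), 16 of the 35 members had such a neighbour with its start within 1000 bases, and 15 of the neighbours were tested. For *Fancf*, *Xrcc4* and *Fancm* the neighbour starts inside the member, so these pairs overlap rather than lie apart, though they are counted as head to head here. Most neighbours had smaller changes than the member. Of 10 tested neighbours of members that fell by more than 2-fold, 4 were lower (1 of them past 2-fold), 2 were higher and 4 did not pass the test (edgeR, adjusted p under 0.05). Over all tested genes, 34.1% were lower, 12.3% were lower past 2-fold and 36.2% were higher. The difference between a member and its neighbour was not itself tested.

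The start of *Fancd2* lies 30 bases from that of *Emc3*, a gene for membrane protein insertion. While *Fancd2* had a log2 fold change of -4.54, *Emc3* averaged 113 ± 3.09 CPM in control and 116 ± 2.69 CPM in senescent MAFs (n = 3 each, SD), a log2 fold change of 0.04 (standard error 0.05). *Rad54l* and *Pomgnt1*, a gene of protein glycosylation, start 150 bases apart and had log2 fold changes of -5.02 and 0.16. *Palb2* and *Dctn5*, 56 bases apart, had log2 fold changes of -2.12 and 0.12, and *Rad51ap1* and *D6Wsu163e*, 375 bases apart, -4.53 and -0.14. None of these 4 neighbours passed the test.

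The neighbours that were lower beside a strongly reduced member were *Brip1os* (-1.77, beside *Brip1*), *Nbr1* (-0.29, beside *Brca1*), *Zfyve26* (-0.49, beside *Rad51b*) and *Zfyve21* (-0.43, beside *Xrcc3*). *Mospd2*, next to *Fancb*, was higher by 0.56 on the log2 scale, and *Tex14*, next to *Rad51c*, rose from 0.114 ± 0.0122 CPM to 0.395 ± 0.104 CPM (n = 3 each, SD). The *Tex14* levels were low in both groups. Among end joining genes the order was turned around for *Prkdc*. It lies 466 bases from *Mcm4*, a subunit of the replicative helicase, which fell from 122 ± 1.67 CPM to 25.6 ± 0.802 CPM (log2 fold change -2.25), while *Prkdc* changed by -0.54. *Lig4* and *Abhd13*, 21 bases apart, were both higher, by 0.93 and 0.42 on the log2 scale, and *Xrcc4* and *Tmem167* had like values of 0.21 and 0.20 without a call. *Gas2*, beside *Fancf*, was higher (0.73), *4930540M05Rik*, beside *Rad52*, did not pass the test (0.33), and *Gm47870*, beside *Fancm*, has no row in the table of counts.

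**Figure D5:**
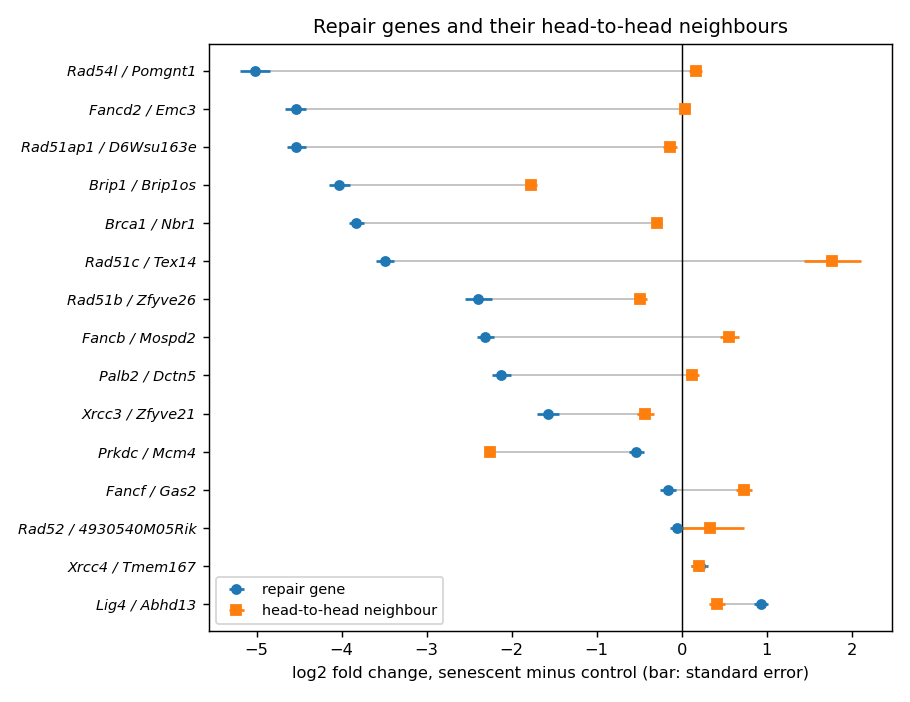
Log2 fold change (senescent minus control, bar: standard error) of 15 repair genes (circles) and of the tested head-to-head neighbour (squares), ordered by the repair gene. Neighbours start within 1000 bases on the opposite strand, and those of *Fancf* and *Xrcc4* overlap the repair gene. The squares stay near 0 beside most repair genes that fell, and *Mcm4* lies far below *Prkdc*.

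In the promoter stretches shown above, *Dclre1c* has 3 CCAAT matches, as *Brip1* has, while *Polq* has none. In the full windows, CCAAT was found for 14 of the 22 recombination and Fanconi genes with a window (63.6%) and 3 of the 6 end joining genes (*Dclre1c*, *Xrcc5* and *Xrcc6*; 50.0%), against 42.4% of the 11384 tested genes with a window and 41.1% of all 27025 genes with one. Of the genes under 10% of control that have a window, *Brca1*, *Brip1*, *Fanca*, *Rad51ap1* and *Rad54l* held CCAAT, and *Fanci*, *Polq* and *Rad51c* did not. An E2F-type word was found for 4 of the 22 (*Bard1*, *Brca2*, *Fancg* and *Rad51c*, 18.2%) and for *Xrcc6* among the 6 (16.7%), against 4.39% of tested genes. CHR-type words were found for *Bard1*, *Polq* and *Rad51b* (13.6%) and for 0 of the 6 end joining genes, against 16.4% of tested genes. The RefSeq starts of these windows can differ from the gene starts used for neighbours, as for *Fanci*, *Fancl*, *Fancc* and *Xrcc6*. For *Fanci*, the 150 bases before the RefSeq start run from 79392188 to 79392337, inside the gene that begins at 79391929. Matches and neighbours of such genes thus refer to different starts, and windows at other starts were not searched. A match is a description of the sequence and says nothing of binding.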

How the data were processed

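RNA-seq of 3 control and 3 senescent MAF samples was used. The authors mapped paired reads of stranded libraries (200 ng of RNA) to mm10 with STAR, counted them per gene with Subread in their MAPRSeq pipeline, and deposited raw counts without normalization, which are scaled here to CPM. The strand setting of the counting and the treatment of reads mapping to several places are not given in the sources used here, so genes with close copies or overlapping neighbours are less certain. The 37 mitochondrial genes hold 0 counts.

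Genes were filtered with filterByExpr (17589 kept), scaled by TMM and compared with the robust quasi-likelihood test of edgeR 4.0.16 (R 4.3.3), two-sided, with group as the only term and Benjamini-Hochberg adjustment over all genes tested. The members, their classes and the other lists were chosen with earlier results of these data known, and lists were described by counts and medians without a test. All 35 members are named. Of the other pathway lists, the 3 genes of smallest p in each direction are named, and all head-to-head neighbours. *Faap20*, *Faap24* and *Faap100* are named besides, as genes of the core complex. Levels per kilobase use the gene model length in the deposited table. Neighbours and exon overlaps come from GENCODE M21. On simulated data with 200 changed genes the test recovered 200, with 18 false calls among 17204 genes. The share of changed genes was far smaller there than in the MAF data, where 12365 of 17589 genes were called. Recovery and false calls at such a share, or for differences of less than 2-fold taken apart, were not tested. A count of 0 allows 3 counts, at most 0.0613 CPM in any library, counting error alone. An exact permutation test of 3 against 3 samples cannot go below 0.1 and was not used. Other settings tried were scaling by RLE or by library size alone, testing all genes with at least 1 count, at least 10 counts in every library, DESeq2 1.42.0, a replicate block, leaving out each library, leaving out *Polq*, and GGCGGGAA as a shorter E2F core.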

Additional observations from a re-analysis of the deposited data

How the results depend on the processing

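Of 420 values of single members under the alternatives, 400 kept their direction and their side of the threshold, and 29 of the 35 members kept both in every setting. The exceptions were *Rad51d*, *Rad52*, *Fance*, *Xrcc5*, *Xrcc4* and *Dclre1c*. *Rad51d* turned to 0.047 on the log2 scale with library size alone and to 0.018 with at least 10 counts in every library, and ranged from -0.084 to 0.060 over libraries left out. *Rad52* turned to 0.016 with library size alone. None of these passed the test.

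With 1 library left out, 24 to 25 recombination and Fanconi genes were lower, 0 were higher and 22 fell past 2-fold, with medians of -2.48 to -2.38. For end joining, 3 to 4 were lower and 1 was higher, with medians of -0.23 to -0.15. End joining genes called higher numbered 3 with library size alone, 1 of them past 2-fold, and 3 with at least 10 counts in every library. In the other end joining list, 1 gene was called higher with library size alone, without a filter, with at least 10 counts in every library and with DESeq2, and 0 to 1 with 1 library left out. The shorter E2F core was found for 5 of 22 recombination and Fanconi genes with a window (22.7%) and 0 of 6 end joining genes, against 4.5% of tested genes. The cause was not tested. The members had at least 26 counts in every library, and the part of depth was not tested.

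Replicate numbers showed no common pairing: deviations from the group means of libraries with the same number correlated at -0.15, 0.14 and -0.12. Libraries with different numbers reached 0.26 (control replicate 1 and senescent replicate 3) and -0.21 (control replicate 1 and senescent replicate 2). With 3 libraries per group, these values cannot exclude that samples of the same number shared a mouse or culture. With the replicate block, 25 recombination and Fanconi genes and 3 end joining genes were lower and 1 end joining gene was higher, over 11624 genes called in place of 12365. *Xrcc5* lost its call (adjusted p = 0.068), and no other member's call changed.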
